A study of Mus musculus with 15 samples.

Results

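The genes described here encode subunits of the phagocyte NADPH oxidase in mouse hematopoietic stem cells (HSCs), the rare bone marrow cells from which all blood lineages arise. They were chosen by symbol: Cybb, Cyba, Ncf1, Ncf4, Rac1 and Rac2, 6 genes of the 20696 in the expression table, and 5 of the 6 had a mean of at least 1 FPKM (fragment counts scaled to exon length and library depth) and entered the tests. The HSCs were sorted by flow cytometry from the marrow of young control mice (3 months), aged control mice (18 months) and aged mice labelled Thbs1 knockout (18 months), with 5 libraries in each group. RNA was amplified from 2 ng with the SMART-Seq v4 kit, which does not mark strand. The labels state no strain, sorting gate, control genotype, kind of knockout allele or pooling of animals. As they do not tie libraries to individual animals, the spread behind each p-value may be technical in part. Each group holds libraries of both sexes, so its libraries cannot all come from the same animal.

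The NADPH oxidase moves electrons from NADPH across a membrane onto oxygen and so makes superoxide. Its catalytic core is a membrane pair, the electron-carrying subunit encoded by Cybb and its partner encoded by Cyba, which also serves other NOX enzymes. A cytosolic complex that holds the products of Ncf1 (organiser) and Ncf4 (a regulator that binds the lipid phosphatidylinositol 3-phosphate) joins the core on stimulation together with GTP-bound Rac. Rac2 is the Rac of blood cells and Rac1 the ubiquitous one, and both have many tasks outside the oxidase, in actin control, adhesion and homing of HSCs. The oxidase is best known from neutrophils and macrophages, where it kills microbes, while in HSCs reactive oxygen is linked to exit from quiescence.

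The labels need a warning before any value. The table carries, above each column, a library name and a sample title, and groups were taken from the titles. The sample descriptions give the same library names to other samples: 5 columns pointed to the same sample by both routes and 10 to a sample of another group. Thbs1, the gene named in the knockout label, was not lower in the libraries labelled aged Thbs1 knockout, with 1.69 to 17.89 FPKM there, 0.01 to 8.75 in the aged and 0.7 to 13.38 in the young controls (limma difference from aged controls 1.73 in log2(FPKM + 1), SE 0.71, adjusted p = 0.302). Every direction for that group is therefore one for libraries so labelled, not for a measured loss of Thbs1. The sex in the library names matched Xist and Eif2s3y in 15 of 15 libraries, with 2 male and 3 female young controls, 3 and 2 aged controls, and 2 and 3 libraries labelled aged Thbs1 knockout.

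Reads in genes numbered between 16640000 and 28630000 per library (rounded, from the FPKM steps). These are the smallest totals that turn the FPKM steps into whole reads, so every read count given here is a lower estimate that would grow in proportion with a larger total, and every limit set by 3 reads would shrink. Labelled knockouts 2 and 5 stood apart, with 4.57% and 2.23% of reads in ribosomal RNA-like genes against 0.58% to 1.49% in the other 13. All 16 HSC marker genes, Procr, Mecom and Hlf among them, were detected in every library, and their summed level was 1191.2 to 1299.2 FPKM (young controls), 1498.3 to 1784.6 (aged controls) and 1175.6 to 1389.4 (labelled knockouts). Among markers of mature oxidase-rich cells, Ltf reached at most 0.68 FPKM, Lcn2 0.15, Mmp8 0.49, Csf1r 0.62 and Adgre1 0.32 in any library, Ngp 1.64 and Itgam 2.53. The neutrophil genes S100a8 and S100a9 were above 0 in every library, at 1.45 to 19.31 (median 4.71) and 1.08 to 20.12 FPKM (median 3.55), both highest in labelled knockout 5 and with medians above the 2.14 FPKM mean of Ncf1. The summed level of the 13 neutrophil and granule markers in the table was 126 to 182 FPKM, 231 to 446 and 189 to 401 in the same order of groups, most of it from Prtn3 and Csf3r. The sum of the 15 monocyte and macrophage markers was 495 to 678, 577 to 900 and 475 to 711 FPKM, most of it from Lyz2 and Cd74, and that of 7 T and NK cell markers 61.9 to 113, 73.6 to 140 and 34.8 to 68.9 FPKM. In bulk RNA, fewer cells that express a gene and less RNA per cell cannot be told apart.

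The RefSeq promoter table held 3 of the 6 genes, and their 250 bases before the annotated start are shown because these genes span the range of levels, from almost none (Cybb) through a few FPKM (Ncf1) to over 90 in each library (Cyba). Capitals mark matches, on either strand, to GAAA followed after any 2 bases by a further GAAA, the core of the interferon-stimulated response element bound by IRF factors. Sequences read 5′ to 3′ in the direction of the gene, all 3 of which lie on the minus strand of GRCm38.p6, at chr5:134229626-134229875 for Ncf1, chrX:9469325-9469574 for Cybb and chr8:122432941-122433190 for Cyba. The Ncf1 window begins directly upstream of the annotated gene, and the Cybb window lies inside the longer GENCODE span of that gene.
Ncf1: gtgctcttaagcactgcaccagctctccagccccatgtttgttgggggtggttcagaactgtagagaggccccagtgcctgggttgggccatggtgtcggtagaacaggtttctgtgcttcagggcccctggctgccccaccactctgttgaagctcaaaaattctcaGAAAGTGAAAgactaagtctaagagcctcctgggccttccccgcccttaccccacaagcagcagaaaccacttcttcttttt
Cybb: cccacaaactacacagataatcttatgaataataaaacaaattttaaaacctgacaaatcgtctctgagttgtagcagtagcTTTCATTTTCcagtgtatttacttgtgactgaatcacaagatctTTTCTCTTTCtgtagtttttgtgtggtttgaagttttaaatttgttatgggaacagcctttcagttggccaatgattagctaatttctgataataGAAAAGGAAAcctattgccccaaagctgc
Cyba: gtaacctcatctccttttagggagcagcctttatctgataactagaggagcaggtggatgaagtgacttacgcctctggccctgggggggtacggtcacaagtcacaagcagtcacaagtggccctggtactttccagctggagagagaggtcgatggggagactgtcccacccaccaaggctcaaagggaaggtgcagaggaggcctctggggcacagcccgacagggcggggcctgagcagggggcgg

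Ncf1 held 1 match, 82 to 73 bases before the start, Cybb held 3, at 168 to 159, 124 to 115 and 29 to 20 bases before the start, and Cyba held 0. Of 32851 windows of the same length in the table, 3.0% held at least 1 match and 4 windows held 3 or more. The PU.1 core GAGGAA, on either strand, was in none of the 3 windows and in 23.3% of all windows. The bare ETS core GGAA, which GAGGAA contains and which overlaps 2 of the Cybb matches above, occurred 1, 3 and 2 times in Ncf1, Cybb and Cyba and in 93.4% of all windows. These are letter matches only, with no binding measured.

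Levels per length spread over several orders of magnitude. Averaged over the 15 libraries, Rac2 stood at 196 FPKM, Cyba at 141, Rac1 at 82.4, Ncf4 at 5.35, Ncf1 at 2.14 and Cybb at 0.0447. Rac2, Cyba and Rac1 were thus among the most abundant genes, above 98.9%, 98.4% and 96.6% of the genes in the table, and Cybb was above only 8.7%. The order was nearly fixed within libraries: Rac2 exceeded Cyba in 14 of 15, Cyba exceeded Rac1 in 15 of 15, Rac1 exceeded Ncf4 in 15 of 15, and Ncf4 exceeded Ncf1 in 14 of 15. The median ratio of FPKM values between neighbours was 1.42 for Rac2 to Cyba, 1.52 for Cyba to Rac1 and 23.0 for Rac1 to Ncf4, so the largest step outside Cybb separated the core partner and the Rac genes from Ncf4 and Ncf1. Rac2 and Cyba overlapped over libraries (157.16 to 245.17 and 94.79 to 200.76 FPKM).

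**Figure D1:**
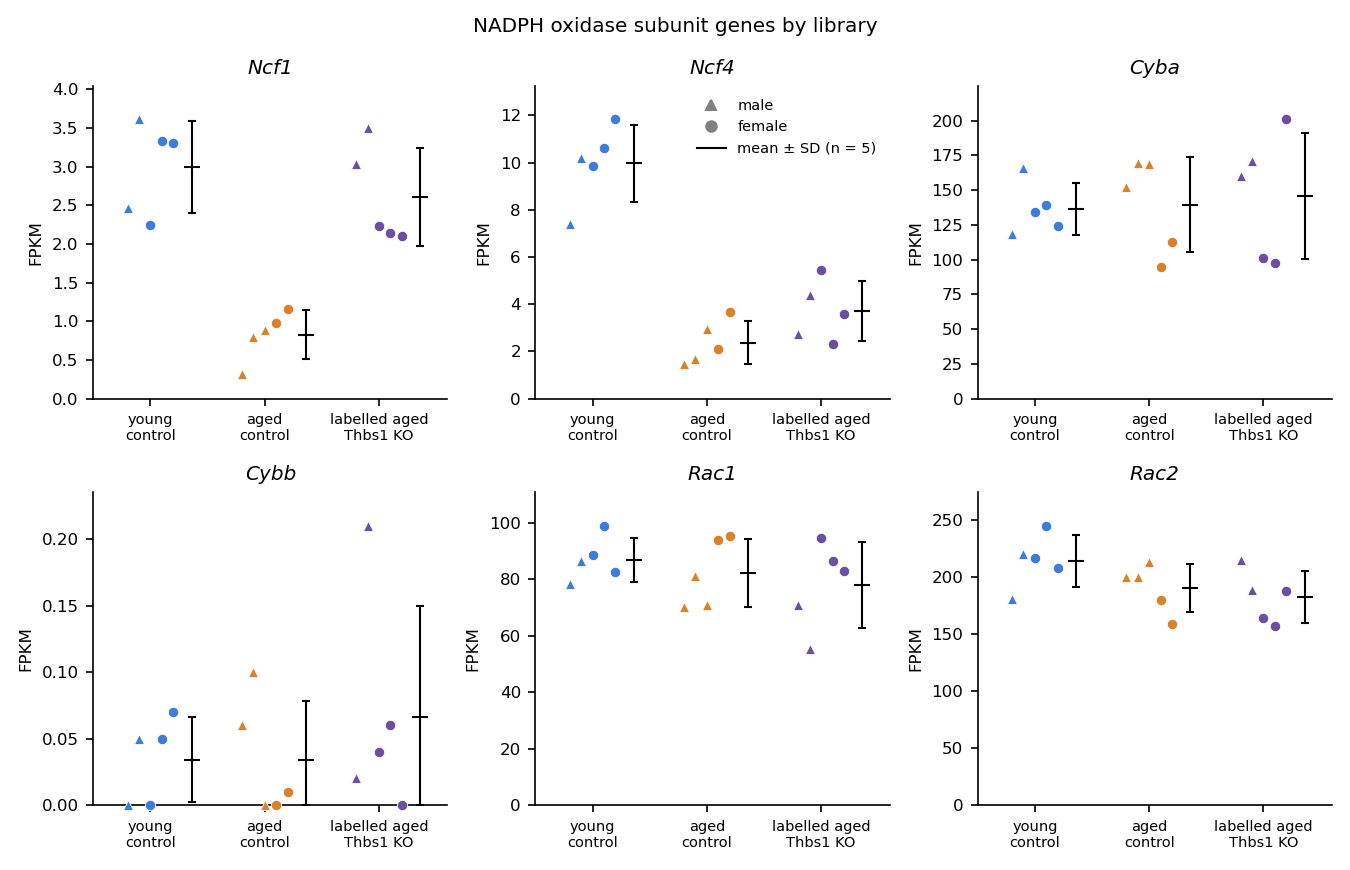
FPKM of each subunit gene (y axis, linear, from 0) in the 5 libraries of each group (x axis), with triangles for male and circles for female libraries, and the mean ± SD at the right of each group, its lower end stopped at 0. Aged controls lie below both other groups for Ncf1, young controls lie above both for Ncf4, and Cyba, Rac1 and Rac2 overlap in all 3 groups.

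The catalytic core was split. Cyba, which makes the stable partner subunit, measured 118.52, 165.95, 134.35, 139.40 and 123.96 FPKM in the 5 young controls (replicates 1 to 5), 151.93, 169.50, 168.45, 94.79 and 112.59 in the aged controls, and 159.99, 170.87, 101.01, 97.37 and 200.76 in labelled knockouts. The 3 groups overlapped, and labelled knockout 5 was the highest of all. Its differences on the log2(FPKM + 1) scale were 0.00 between aged and young controls (95% interval -0.43 to 0.44, limma adjusted p = 0.992), 0.04 between labelled knockouts and aged controls (-0.39 to 0.48, adjusted p = 0.953) and 0.05 between labelled knockouts and young controls (-0.39 to 0.49, adjusted p = 0.901). None of these differences passed, and each interval reaches at least 0.39 to either side of 0.

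Cybb, the X-linked gene of the electron-carrying subunit, was at the floor. It was listed at 0 in 5 libraries and measured 0.00, 0.05, 0.00, 0.05 and 0.07 FPKM in young controls, 0.06, 0.10, 0.00, 0.00 and 0.01 in aged controls, and 0.02, 0.21, 0.04, 0.06 and 0.00 in labelled knockouts. In reads, that is 90 over all 15 libraries, 24 of them in labelled knockout 2. A count of 0 allows up to 3 reads, or 0.0211 to 0.03 FPKM in those 5 libraries, which covers counting error only. Its group means of 0.034, 0.034 and 0.066 FPKM did not differ beyond the spread (exact permutation p = 1, 0.55 and 0.57 for aged against young, labelled knockout against aged, and labelled knockout against young), and the gene was left out of the test across genes. Transcript of the catalytic subunit was therefore barely detectable at this depth beside its abundant partner.

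Other catalytic subunits were as low: Nox1 reached at most 0.26 FPKM, Nox3 0.48, Nox4 0.15, Duox1 0.32 and Duox2 0.15. Cybc1, the chaperone that stabilises the core, was expressed at 25.5 ± 1.96 FPKM in young controls, 23.5 ± 1.79 in aged controls and 21.3 ± 3.6 in labelled knockouts (SD, n = 5 each). Noxa1, the activator used by NOX1, stood at 4.96 ± 1.55, 4.55 ± 1.39 and 6.62 ± 0.462 FPKM in the same order. Hvcn1, the voltage-gated proton channel that balances the charge the oxidase moves, was low, at 1.35 ± 0.351, 1.23 ± 0.545 and 1.05 ± 0.381 FPKM.

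The first comparison, aged against young controls, asks what age did to HSC expression, and here the organiser and regulator of the cytosolic complex moved. Ncf1 and Ncf4 fell and no tested member rose: 2 of 5 were called by limma at an adjusted p under 0.05, where 4.42% of all 11345 tested genes were called and 1.23% were called lower. The median difference of the 5 was -0.17, beside -0.02 over all tested genes. The 3 others were Cyba, Rac1 and Rac2.

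Ncf1 measured 2.46, 3.61, 2.25, 3.33 and 3.31 FPKM in young controls, against 0.32, 0.79, 0.89, 0.98 and 1.16 in aged controls. Every aged control was below every young control, and aged control 1 was the lowest. The means were 2.99 ± 0.598 and 0.828 ± 0.315 FPKM (SD, n = 5 each), a 3.61-fold lower mean. On the log2(FPKM + 1) scale Ncf1 fell by 1.13 (SE 0.17, limma adjusted p = 0.000432, exact permutation p = 0.0079, the smallest that 5 against 5 allows). This scale understates low genes: with a pseudocount of 0.1 the fall was 1.80, and in limma-voom on reads recovered from the FPKM steps 1.99. The values rest on 167 to 362 reads per young control and 21 to 99 per aged control.

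Ncf4 fell further. It measured 7.39, 10.20, 9.86, 10.62 and 11.83 FPKM in young controls and 1.48, 1.68, 2.93, 2.08 and 3.65 in aged controls, so the highest aged control was under the lowest young control. The means were 9.98 ± 1.63 and 2.36 ± 0.909 FPKM, a 4.22-fold lower mean, and the log2(FPKM + 1) difference was -1.73 (SE 0.21, limma adjusted p = 4.68e-05, exact permutation p = 0.0079). By size it was the third of the 140 genes that fell, and Ncf1 ranked 31. Groups did not overlap, with aged controls lower, for 2.59% of tested genes.

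The Rac genes were not called. Rac2 measured 180.92, 220.29, 217.08, 245.17 and 208.59 FPKM in young controls and 200.56, 199.99, 213.16, 180.33 and 159.42 in aged controls, a log2(FPKM + 1) difference of -0.17 (95% interval -0.44 to 0.10, limma adjusted p = 0.457); with quantile normalization Rac2 was called lower (-0.40, adjusted p = 0.032). Rac1 measured 78.33, 86.30, 88.43, 98.85 and 82.51 FPKM in young controls and 70.09, 81.07, 70.96, 93.75 and 95.40 in aged controls, a difference of -0.09 (-0.39 to 0.22, adjusted p = 0.749). Both groups overlapped for both genes. Daglb lies on the opposite strand and shares 2309 of the 4496 exon bases of Rac1, so without strand some reads may be Daglb's, whose own mean was 6.53 FPKM against 82.4 for Rac1.

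Ncf1 has such a neighbour too. Gtf2ird2, on the opposite strand, shares 408 of the 3663 exon bases of Ncf1 and had a mean of 5.88 FPKM, above Ncf1 itself. It measured 5.67 ± 0.631 FPKM in young controls, 5.77 ± 1.13 in aged controls and 6.21 ± 1.68 in labelled knockouts, with log2 differences of 0.01 to 0.08 and no call in any of the 3 group comparisons. The reads that the overlap adds to Ncf1 cannot be told apart here, and they weigh most where Ncf1 is lowest, in aged controls.

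The comparison within the 18-month mice, labelled knockout minus aged control, asks whether HSCs carrying that label differ from other old HSCs. Ncf1 was the member called, and it was higher: 1 of 5, where 1.55% of tested genes were called and 0.361% were called higher. The median difference of the 5 was 0.04, beside -0.03 over all tested genes. Aged controls enter this comparison and the one with age, so the Ncf1 values of both rest on the same 5 libraries.

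Ncf1 measured 3.04, 3.50, 2.23, 2.14 and 2.10 FPKM in labelled knockouts 1 to 5, all above the highest aged control at 1.16. The mean was 2.60 ± 0.633 FPKM (SD, n = 5), 3.14-fold that of aged controls. The log2(FPKM + 1) difference was 0.98 (SE 0.17, limma adjusted p = 0.00375, exact permutation p = 0.0079), 1.60 with a pseudocount of 0.1 and 1.72 in limma-voom. Groups did not overlap, with labelled knockouts higher, for 0.749% of tested genes. Without labelled knockouts 2 and 5, the libraries rich in ribosomal RNA-like reads, the difference was 0.93 (adjusted p = 0.0151).

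Ncf4 in labelled knockouts stood at 2.74, 4.39, 5.46, 2.30 and 3.60 FPKM, a mean of 3.70 ± 1.27. These values overlap those of aged controls. The difference was 0.48 (95% interval 0.04 to 0.92) and did not pass across all genes (limma adjusted p = 0.325; exact permutation p = 0.095), although array weights, which down-weight variable libraries, made it a call (0.88, adjusted p = 0.00368). The ratio of Ncf4 to Ncf1 FPKM was 2.83 to 4.38 for young controls, 2.12 to 4.62 for aged controls and 0.901 to 2.45 for labelled knockouts; whether the 2 genes differ in their change was not tested.

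**Figure D2:**
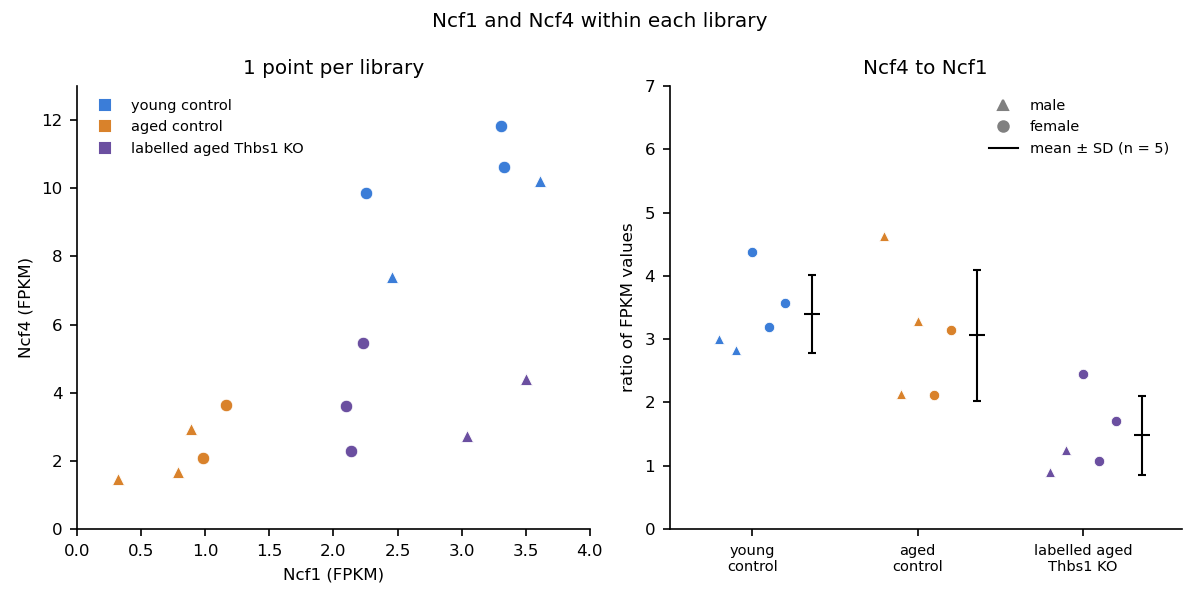
Left, Ncf4 (y axis) against Ncf1 (x axis) in FPKM, linear from 0, with 1 point per library, colours for the 3 groups, and triangles for male and circles for female libraries. Right, the ratio of Ncf4 to Ncf1 FPKM within each library (y axis, linear, from 0) by group with mean ± SD. The ratio is at most 2.45 in labelled knockouts and at least 2.83 in young controls, and aged controls span 2.12 to 4.62.

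Rac2 measured 215.39, 189.30, 164.75, 157.16 and 187.62 FPKM and differed by -0.06 (-0.33 to 0.21, adjusted p = 0.881). Rac1 measured 70.70, 55.30, 94.48, 86.47 and 82.97 FPKM and differed by -0.09 (-0.39 to 0.22, adjusted p = 0.846). Both genes overlapped with aged controls, and labelled knockout 2 had the lowest Rac1 of the 15 libraries. With array weights Cyba was called lower in labelled knockouts (-0.50, adjusted p = 0.0113), against 0.04 without them.

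The last group comparison, labelled knockouts against young controls, shares its libraries with both others. Ncf4 was called lower, 1 of 5 members, where 1.63% of tested genes were called and 0.617% were called lower. Every labelled knockout was under the lowest young control, as for 2.32% of tested genes, and the log2(FPKM + 1) difference was -1.25 (SE 0.21, limma adjusted p = 0.0042, exact permutation p = 0.0079); without labelled knockouts 2 and 5 it was -1.34 (adjusted p = 0.012). Ncf1 differed by -0.15 (95% interval -0.51 to 0.21, adjusted p = 0.596), with overlapping groups. Rac2 differed by -0.23 (-0.50 to 0.04, adjusted p = 0.297) and was called with quantile normalization (-0.48, adjusted p = 0.0228) and with array weights (-0.37, adjusted p = 0.0234). Rac1 differed by -0.17 (-0.48 to 0.13, adjusted p = 0.469), and the median of the 5 was -0.17, beside -0.06 over all tested genes.

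**Figure D3:**
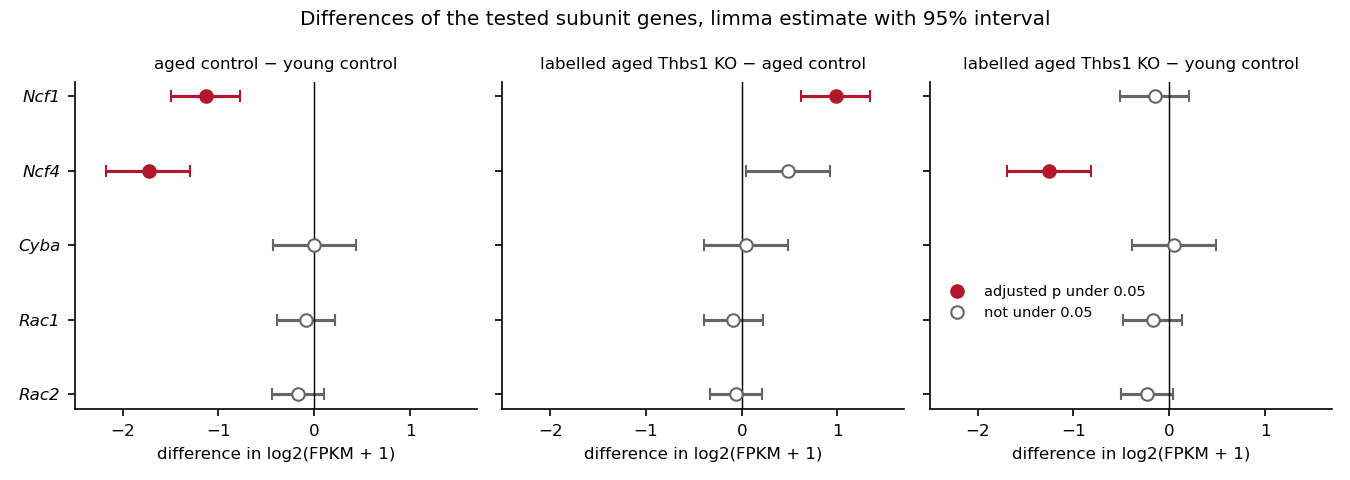
Differences in log2(FPKM + 1) (x axis) of the 5 tested subunit genes in the 3 group comparisons, as limma estimates with 95% intervals, filled red where the adjusted p is under 0.05. Ncf1 lies at -1.13, 0.98 and -0.15, Ncf4 at -1.73, 0.48 and -1.25, and the intervals of Cyba, Rac1 and Rac2 all include 0.

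Sex was set against expression because Cybb is X-linked and sex stands in the library names; replicates 1 and 2 are male and 4 and 5 female in all 3 groups, so sex and replicate number differ only in replicate 3. Cybb itself had means of 0.0629 FPKM in males and 0.0288 in females, with 24 of the 54 male reads in labelled knockout 2, and its difference without the filter on low values was -0.05 (95% interval -0.14 to 0.04, limma adjusted p = 0.501). With group in the model, 1 of 5 members was called between 8 female and 7 male libraries, where 12.9% of tested genes were called and 9.67% were called higher in females. That member was Rac1, with 82.51 to 98.85 FPKM (median 91.1) in females and 55.30 to 86.30 (median 71.0) in males. The difference was 0.32 on the log2(FPKM + 1) scale (SE 0.09, limma adjusted p = 0.0336). The call was lost without any 1 of aged controls 1, 3, 4 and 5 or labelled knockouts 1 to 4 (adjusted p = 0.0507 to 0.0932), and with array weights (0.26, adjusted p = 0.106).

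Cyba went the other way, with 94.79 to 200.76 FPKM (median 118) in females and 118.52 to 170.87 (median 166) in males. Its difference of -0.38 did not pass (95% interval -0.69 to -0.06, limma adjusted p = 0.102). The female range is set by labelled knockout 5. Without that library Cyba was called lower in females (-0.47, adjusted p = 0.00923), as it was without young control 1 (-0.48, adjusted p = 0.0294), without labelled knockouts 2 and 5 together (-0.44, adjusted p = 0.0171) and with quantile normalization (-0.32, adjusted p = 0.022).

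Rac2 differed by -0.12 between sexes (95% interval -0.33 to 0.09, limma adjusted p = 0.431), Ncf1 by -0.04 (-0.34 to 0.26, adjusted p = 0.861) and Ncf4 by 0.22 (-0.13 to 0.57, adjusted p = 0.373). The ratio of Rac2 to Rac1 FPKM was 2.31 to 3.42 in males and 1.67 to 2.53 in females. In young controls the ratio was nearly constant, at 2.31 to 2.55 in all 5 libraries of both sexes. It spread in the 18-month groups, to 1.67 to 3.00 in aged controls and 1.74 to 3.42 in labelled knockouts, with the male libraries of each of these 2 groups above its female ones.

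**Figure D4:**
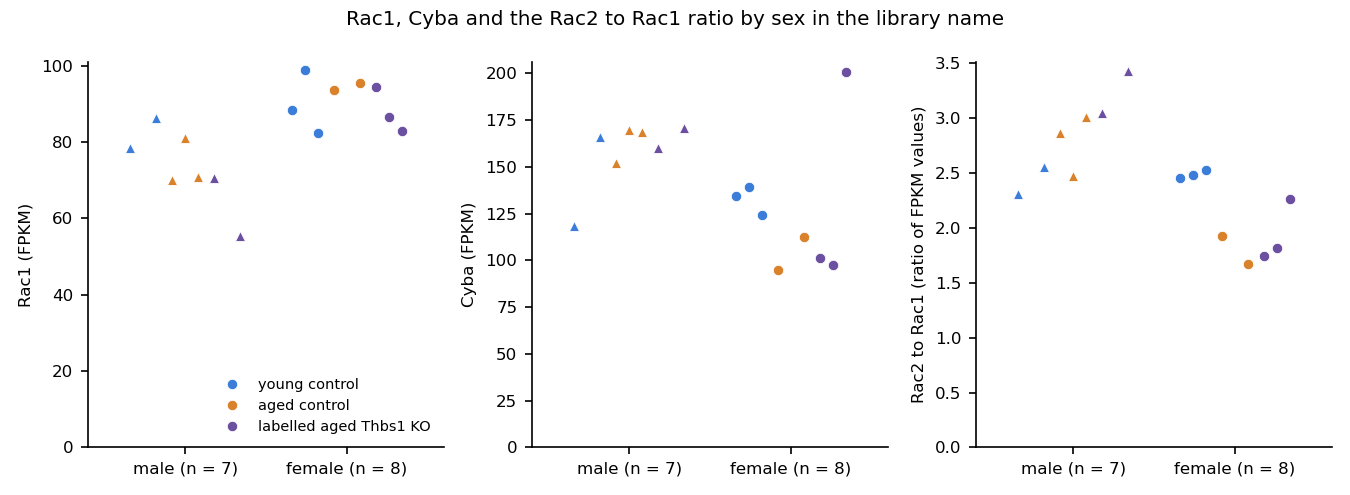
Rac1 (FPKM), Cyba (FPKM) and the ratio of Rac2 to Rac1 FPKM (y axes, linear, from 0) in 7 male and 8 female libraries (x axis), with colours for the 3 groups and 1 point per library. Rac1 reaches down to 55.30 FPKM in males and no lower than 82.51 in females, and the Cyba point at 200.76 FPKM among the females is labelled knockout 5.

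The age change was also fitted within each sex. Ncf1 fell by 1.28 in males (limma adjusted p = 0.00374), and its difference in females was -0.93 (adjusted p = 0.061). Ncf4 fell by 1.71 in males (adjusted p = 0.00427) and by 1.63 in females (adjusted p = 0.0136). The difference between the sexes in the age change was called by limma for 0 of 5 members (0 at an unadjusted p under 0.05) and for 0% of tested genes (998 genes unadjusted). For Ncf1 between labelled knockouts and aged controls, the difference was 1.37 in males (adjusted p = 0.00547) and 0.61 in females (adjusted p = 0.559), with -0.76 between the sexes (95% interval -1.41 to -0.11, adjusted p = 0.999, unadjusted p = 0.0249). Each sex holds 2 or 3 libraries per group.

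Factors known to drive phagocyte oxidase genes were measured beside them, 10 of a list of 12 being high enough to test. Between aged and young controls 1 rose and 1 fell, where 4.42% of all tested genes were called. The list median was -0.25, beside -0.02 over all tested genes. Cebpb, a factor of myeloid and inflammatory genes, rose from 15.8 ± 3.27 to 34.1 ± 9.04 FPKM (1.03, SE 0.26, limma adjusted p = 0.0296; limma-voom adjusted p = 0.0534). Hoxa9, a homeobox factor of HSCs that also acts on oxidase genes, fell from 17.0 ± 0.497 to 11.4 ± 2.08 FPKM (-0.55, SE 0.13, adjusted p = 0.0165). Spi1, which encodes PU.1, stood at 38.5 ± 2.54 FPKM in young controls, 29.2 ± 2.79 in aged controls and 29.9 ± 5.21 in labelled knockouts and was not called (adjusted p = 0.0861 for age). It is named for the promoter search above, after its values were seen. No factor of the list was called by limma in either comparison of the labelled knockouts (2 and 4 at an unadjusted p under 0.05, 0 by limma-voom in each). Of all tested genes, 1.55% were called against aged and 1.63% against young controls.

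Kinases that phosphorylate the cytosolic subunits, or make the lipids their PX domains bind, had 22 of 26 genes tested. With age 1 rose and 1 fell, where 4.42% of all tested genes were called (list median -0.21, beside -0.02 over all tested genes). Fgr, a Src-family kinase of myeloid cells, rose from 1.68 ± 0.288 to 4.08 ± 1.36 FPKM (0.88, SE 0.21, limma adjusted p = 0.0176), and Prkcd, a protein kinase C that phosphorylates the Ncf1 product, fell from 30.7 ± 2.4 to 22.7 ± 3.1 FPKM (-0.43, SE 0.12, adjusted p = 0.0406). In labelled knockouts Fgr stood at 1.84 ± 0.714 FPKM, near the young level, and it was not called against aged controls. Of the 22, limma called 0 in either comparison of that group (5 and 7 unadjusted, 0 by limma-voom in each). There, 1.55% and 1.63% of all tested genes were called. Between sexes 5 of the 22 were called, where 12.9% of all tested genes were, and all 5 were higher in females, as were 9.67% of all tested genes. Among them were Pik3c3, the kinase that makes phosphatidylinositol 3-phosphate (14.9 ± 1.35 FPKM in females and 9.78 ± 2.3 in males, adjusted p = 0.00874), and Lyn (17.1 ± 2.34 and 11.1 ± 4.13, adjusted p = 0.00779).

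Few regulators of the Rac switch were called. Of 15 tested activators, limma called 0 in each of the 3 group comparisons (4, 1 and 6 unadjusted, and 1, 1 and 0 by limma-voom), with medians of -0.14, -0.15 and -0.35. Of 11 tested inhibitors 1 fell with age: Arhgap15, a GTPase-activating protein for Rac, went from 1.92 ± 0.627 to 0.568 ± 0.23 FPKM (-0.88, SE 0.18, adjusted p = 0.00686). Of 13 other small GTPases related to Rac 1 rose and 1 fell with age. Rhoj, a relative of Cdc42, rose from 4.02 ± 0.703 to 11.3 ± 1.64 FPKM (1.29, SE 0.15, adjusted p = 3.69e-05) and was above young controls in labelled knockouts too, at 7.06 ± 1.32 (0.68, adjusted p = 0.0287), while Rhobtb3 fell from 7.78 ± 1.95 to 3.48 ± 1.33 FPKM (-0.99, SE 0.27, adjusted p = 0.0417; limma-voom adjusted p = 0.0571). Between sexes, the activator Arhgef6 was higher in females (10.0 ± 2.58 against 5.66 ± 4.75 FPKM, adjusted p = 0.0216) and the GTPase Rnd2 lower (10.2 ± 1.1 against 15.4 ± 4.22, adjusted p = 0.0275).

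Enzymes that remove superoxide and peroxide, the products of the oxidase, had 19 tested genes. With age 1 rose and none fell, where 4.42% of all tested genes were called (median 0.16, beside -0.02 over all tested genes). That gene was Gpx3, the secreted glutathione peroxidase, which went from 3.73 ± 1.61 to 25.5 ± 17.0 FPKM (2.37, SE 0.50, limma adjusted p = 0.00796). In labelled knockouts Gpx3 stood at 38.1 ± 38.5 FPKM, above young controls (2.59, adjusted p = 0.0102). It was the only call of the 19 there, where 1.63% of all tested genes were called. Against aged controls limma called 0 of the 19 (0 unadjusted, 0 by limma-voom), where 1.55% of all tested genes were called. Gpx3 was also higher in females than in males (32.1 ± 34.1 against 11.4 ± 7.72 FPKM, adjusted p = 0.0155), with a spread as large as its mean. Hvcn1 was lower in females, the only one of 4 other tested oxidase family genes called between sexes (0.939 ± 0.311 against 1.52 ± 0.305 FPKM, adjusted p = 0.0497). The Hvcn1 call was lost in 16 of 25 alternatives (limma adjusted p up to 0.897). Of all tested genes 12.9% were called between sexes, and of the 19 removal enzymes only Gpx3 was.

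Marker genes that moved with the same comparisons were Prtn3, a granule protease, from 102 ± 16.0 to 295 ± 78.5 FPKM with age (1.49, limma adjusted p = 0.000433), Cd14 (0.89, adjusted p = 0.0172), Klrb1c (2.34, adjusted p = 8.69e-05) and the HSC markers Procr (1.01, adjusted p = 0.00662), Ly6a (0.88, adjusted p = 0.013) and Pdzk1ip1 (1.04, adjusted p = 0.0154). All 6 rose in the comparison in which Ncf1 and Ncf4 fell, and Hoxa9, which the HSC list also holds, fell. Most tested markers were not called with age, where 4.42% of all tested genes were called. Uncalled were 5 of 6 neutrophil and granule, 3 of 4 monocyte and macrophage, 2 of 3 T and NK cell and 11 of 16 HSC markers. Age differences within these lists ran from -0.69 to 1.49, -0.10 to 0.99, -0.13 to 2.34 and -0.55 to 1.04, in that order. Against aged controls, labelled knockouts had lower Ly6a (-1.12, limma adjusted p = 0.00432), Csf3r (-1.01, adjusted p = 0.0322) and Klrb1c (-1.38, adjusted p = 0.0207). Each was the only call of its list there, of 16, 6 and 3 tested markers, where 1.55% of all tested genes were called. Against young controls labelled knockouts had higher Prtn3 (0.91, limma adjusted p = 0.0497) and lower Hbb-bt (-1.14, adjusted p = 0.0424). Both were the only call of their list, of 6 neutrophil and granule and 7 erythroid markers, where 1.63% of all tested genes were called. Differences within these lists ran from -0.32 to 0.91 and from -1.14 to 0.49. In females Tek (0.65, adjusted p = 0.0417) and Meis1 (0.38, adjusted p = 0.0343) were higher, 2 of 16 HSC markers. Cd74 (-0.82, adjusted p = 0.0186) was lower, 1 of 4 monocyte and macrophage markers. Between sexes 12.9% of all tested genes were called, and these 2 lists ran from -0.42 to 0.65 and from -0.82 to 0.21. In limma-voom the calls of Csf3r (adjusted p = 0.0536), Prtn3 and Hbb-bt against young controls (0.0503 each), Tek (0.0703) and Meis1 (0.0607) were lost. Over all alternatives, limma-voom among them, Csf3r lost this call with its sign kept in 10 of 29, Prtn3 in 20 of 29 and Hbb-bt in 14 of 29. Tek lost its call in 16 of 26 and Meis1 in 13 of 26. The part of these cells in the results on the oxidase genes was not tested.

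The genes most like each member over the 15 libraries, by Pearson r of log2(FPKM + 1) among 6803 genes with a mean of at least 5 FPKM, are given as a description, since the points share group, sex and library depth. Ncf1 was closest to Ebi3 (0.91), a cytokine subunit, Ctla2a (0.87) and Akr1c13 (0.86). Ebi3 went from 44.9 to 12.2 to 28.1 FPKM and Ctla2a from 154 to 57.4 to 108 over young controls, aged controls and labelled knockouts, the order that Ncf1 shows. Ncf4 was closest to Rnase6, Gins1 and Prim2 (0.90 each), of which Gins1 and Prim2 encode parts of the DNA replication machinery. Rnase6 went from 39.4 to 13.4 to 14.5 FPKM, low in both 18-month groups as Ncf4 was.

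Rac2 was closest to Coro1a (0.91), an actin-binding coronin of blood cells, then Dhrs7 (0.82) and Tnfrsf18 (0.80). Rac1 was closest to Ppp2ca (0.93), Tmem165 (0.93) and Tor1aip2 (0.92), while Pafah1b3 (0.94) and Mrpl28 (0.93) were among the closest to Cyba. Among the members themselves r was 0.75 for Ncf1 and Ncf4, 0.58 for Cyba and Rac2, and -0.55 for Cyba and Rac1.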

How the data were processed

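The deposited values are FPKM rounded to 2 decimals for 20696 genes in 15 libraries. Per the submitters' processing notes, FastQC 0.11.5, STAR and edgeR were used with GRCm38/mm10; how the FPKM were computed is not given in the sources used here. Gene positions and exon lengths came from GENCODE M21. Whole reads were recovered from the FPKM steps. The library size was fitted on genes of up to 250 bases, where 99.5% to 100.0% of values then lay within 0.1 of a whole read. For genes of 250 to 500 bases, left out of that fit, the share was 97.4% to 98.3%. Both shares cover only values above 0 and under 50 reads.

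Groups follow the sample titles. The test was limma 3.58.1 (R 4.3.3) with an intensity trend on log2(FPKM + 1), all 15 libraries, 11345 genes with a mean of at least 1 FPKM (9351 not tested), two-sided, Benjamini-Hochberg adjusted p under 0.05 over all tested genes. Sex was tested with group as a covariate. Exact permutation tests of single genes are two-sided, 5 against 5. In simulated data for the age comparison (11345 genes, 200 changed), 72% of log2 changes of 1 and 100% of changes of 2 were recovered. There, 4.4% of calls were false. How far these shares hold for the real libraries was not tested. The array weights of the real libraries ran from 0.15 (labelled knockout 5) to 4.15 (labelled knockout 3).

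The members and gene lists were chosen with earlier results of these data known. Named genes are the members, at most 4 called genes per list and comparison with the smallest p, and the 3 genes with the highest r to each member; Cybb was left out of the last step because it sits at the floor. Cybc1, Noxa1, Hvcn1, Spi1, overlapping genes and low NOX genes are named besides. Some genes that these rules name are not reported here. Alternatives were other pseudocounts, filters, scalings, models and groupings, and leaving out libraries.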

Additional observations from a re-analysis of the deposited data

Results flagged for a closer look

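Cybb in labelled aged Thbs1 knockout 2 lay far from the other 4 libraries of its group, at 0.21 FPKM against 0 to 0.06. The gap to the nearest other library was 0.714 of the range of the group, above the 95% critical value of 0.71 for 5 libraries. The value rests on 24 reads, against 2, 5, 10 and 0 in labelled knockouts 1, 3, 4 and 5. FPKM are rounded to 2 decimals, and the small margin over 0.71 lies within that rounding. Labelled knockout 2 was the only such library among 18 groups of 5 checked, and chance gives about 1 in 20. The same library had the largest share of ribosomal RNA-like reads (4.57%) and the lowest Rac1 (55.30 FPKM).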

How the results depend on the processing

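The largest dependence was on which label groups the libraries. Grouped by the library names in the sample descriptions, 0 members were called in the age comparison, 0 between labelled knockouts and aged controls, 0 between labelled knockouts and young controls and 0 between sexes, and over all genes limma then called 0, 0, 15 and 579 (642, 731, 1645 and 3050 at an unadjusted p under 0.05). Under that grouping the age differences were 0.79 for Ncf1, 0.75 for Ncf4, -0.08 for Cyba, 0.01 for Rac1, 0.08 for Rac2, 0.52 for Arhgap15, -0.61 for Rhoj, 0.25 for Rhobtb3, -0.83 for Fgr, 0.21 for Prkcd, 0.38 for Hoxa9, -0.62 for Cebpb, -0.25 for Gpx3, -0.54 for Procr, -0.78 for Ly6a, -0.55 for Pdzk1ip1, -0.71 for Prtn3, -0.40 for Cd14 and -1.03 for Klrb1c, all against the sign by titles except that Cyba was 0.00 by titles. Between labelled knockouts and aged controls they were -0.61 for Ncf1, -0.91 for Ncf4, -0.32 for Cyba, 0.22 for Rac1, 0.35 for Ly6a, 0.02 for Csf3r and 1.62 for Klrb1c. Against young controls they were 0.18 for Ncf1, -0.16 for Ncf4 (adjusted p = 0.885), -0.40 for Cyba, 0.23 for Rac1, -0.04 for Rhoj and -0.06 for Prtn3, and between sexes 0.14 for Rac2, -1.02 for Gpx3 and 0.51 for Rac1 (adjusted p = 0.0654), the last larger than the 0.32 by titles. By titles, the library names carry the letter A in all young controls, B in all aged controls and C in all labelled knockouts. What the letters stand for, and which grouping is right, was not tested.

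With groups by title, the member counts of 2, 1 and 1 in the group comparisons stayed at 2, 1 and 1 when each library was left out in turn (lowest 2, 1 and 1, highest 2, 1 and 1). With only genes of mean FPKM of at least 5 the counts were 1 for age and 0 for labelled knockouts against aged controls, since Ncf1 lies under that filter. Array weights gave 3 for labelled knockouts against aged controls, 2 against young controls and 0 for sex; the cause was not tested. Quantile normalization gave 3 for age (Rac2 added), 2 against young controls and 2 for sex. Between sexes the count ranged from 0 to 2 when each library was left out and was 2 without labelled knockouts 2 and 5 together.

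Uncalled differences near 0 changed sign: for Cyba with age, -0.16 (quantile normalization), -0.07 (sex as a covariate) and -0.05 (limma-voom), with -0.07 to 0.13 on leaving out each library; for Cyba between labelled knockouts and aged controls, -0.50 (array weights, a call) and -0.22 (without labelled knockouts 2 and 5), with -0.08 to 0.17; for Cyba against young controls, -0.13 (quantile normalization), -0.33 (array weights) and -0.22 (without labelled knockouts 2 and 5), with -0.08 to 0.18. Rac1 was 0.23 (array weights) and 0.03 (without labelled knockouts 2 and 5) against aged controls, with -0.16 to 0.03 on leaving out each library, and 0.01 (array weights) against young controls. Between sexes Ncf1 was 0.03 (pseudocount 0.1) and 0.04 (without labelled knockouts 2 and 5), with -0.11 to 0.03, and Rac2 was 0.01 (quantile normalization). Of 561 alternative values for members, 500 kept their sign and side of the threshold, 11 lost and 8 gained a call and 42 changed sign; of 916 for list genes, 720 kept both, 176 lost the call and 20 changed sign.

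The replicate block changed no call among the members: Ncf1 stood at -1.13 with age (adjusted p = 0.00138) and 0.98 in labelled knockouts against aged controls (adjusted p = 0.0102), and Ncf4 at -1.73 (adjusted p = 5.33e-05) and, against young controls, -1.25 (adjusted p = 0.00275). Whether replicate numbers pair the libraries is not settled. Deviations of same-numbered libraries correlated at -0.46 to 0.53, over 0.1 in 6 of 15 pairs. In 5 of the 15 pairs the correlation was best with the same number. As replicate number largely runs with sex, such correlations cannot tell pairing from sex. Over all genes the age count of 501 was 265 with a mean FPKM of at least 5, 1011 with only the 2 groups, 5397 with array weights, 1030 without labelled knockouts 2 and 5 and 311 to 943 on leaving out each library. The 176 for labelled knockouts against aged controls became 113, 77, 3688 and 95 to 229 under the first 3 of these and on leaving out. The 185 against young controls became 120 (filter of 5), 429 (sex as a covariate), 475 (array weights) and 98 to 676. The 1468 for sex became 860 (no filter), 437 (array weights), 2327 (without labelled knockouts 2 and 5) and 529 to 2872. Reads limit Cybb and the aged Ncf1 values most.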
